A study of Mus musculus with 30 samples.

Results

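Dopamine neurons of the midbrain project to the striatum, where their transmitter acts on projection neurons, and 9 genes that mark this circuit were followed in 15 mice. The genes are Drd1, Drd2, Ppp1r1b, Adora2a, Penk, Pdyn, Th, Slc6a3 and Rgs9. They were chosen by name, through the accessions of the array's probes, and all 9 were present among the 36717 genes and transcripts measured. RNA was taken from the hippocampus and from a sample labelled brain, and hybridized to 1 Agilent 1-colour mouse array per sample, 30 arrays in all. Hippocampal and brain arrays are numbered alike from 0 to 14, with the same genotype and sex at each number, and that number is used here as the mouse, although the labels do not state that both tissues of a number came from 1 animal. The labels name no brain region within the brain sample, so a level there is an average over many regions, and the labels do not say whether the striatum or midbrain was sampled whole.

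The mice were C57BL/6j in strain and 15 to 20 months old. The WT group held 3 females (mice 10, 11 and 12). The 3xTgAD group, an Alzheimer's model, held 2 females (mice 1 and 2) and 3 males (mice 3, 4 and 5), and carries APP with the Swedish mutation, mutated PS1 (M146V) and mutated tau (P301L), with tau driven by the neuronal Thy1 promoter. The JHT_3xTgAD group held 2 females (mice 6 and 7) and 3 males (mice 0, 8 and 9), and adds to these transgenes a deletion of the immunoglobulin J heavy chain locus, which leaves no mature B cells. The JHT group held 2 females (mice 13 and 14) with the deletion and without the transgenes, so B-cell deficiency in mice without the transgenes was seen in females only, as was WT. All mice were perfused with PBS before dissection.

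Projection neurons of the striatum fall into a class with the D1 dopamine receptor, which also makes dynorphin, and a class with the D2 receptor, which also makes enkephalin and the adenosine receptor on which caffeine acts. D1 receptors raise cAMP and D2 receptors lower it, and both classes hold the phosphatase inhibitor DARPP-32 and the signalling brake RGS9, through which receptor signals are passed on and ended. The dopamine neurons themselves make tyrosine hydroxylase, the rate-limiting enzyme of dopamine synthesis, and the dopamine transporter, which takes dopamine back up. Several of these genes are also used elsewhere, among them Th in noradrenaline neurons and the hypothalamus, and Penk and Pdyn in neurons of the hippocampus, cortex and hypothalamus.

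Promoter sequence is shown for the genes that define the dopamine neuron (Th and Slc6a3) and its receptor on the D2 class (Drd2), with the motifs searched for. RefSeq promoters on build GRCm38.p6 were matched for 6 of the 9 genes, and Ppp1r1b, Adora2a and Penk were not in the table. Over the 250 bases before the start site and on both strands, a cAMP response element (TGACGTCA) was found in 1 of the 6, Th, starting 45 bases before the start, against 1.55% of all 32851 mouse promoters in the table. A GC box (GGGCGG, or CCGCCC on the other strand) was found in 4 of the 6 at the most upstream start, against 32.7% of all promoters, and in Drd1 only at another start. Pdyn had none. The 150 bases before the most upstream start follow for Th (chr7:142899996-142900145, minus strand), Drd2 (chr9:49340253-49340402, plus strand) and Slc6a3 (chr13:73536597-73536746, plus strand), each read 5′ to 3′ along the gene, with motif matches in capitals. A match is a stretch of letters and no measured binding site.
Th: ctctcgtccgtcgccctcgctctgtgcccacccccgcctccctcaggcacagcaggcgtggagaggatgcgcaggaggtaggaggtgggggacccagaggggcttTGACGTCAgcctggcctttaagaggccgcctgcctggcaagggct
Drd2: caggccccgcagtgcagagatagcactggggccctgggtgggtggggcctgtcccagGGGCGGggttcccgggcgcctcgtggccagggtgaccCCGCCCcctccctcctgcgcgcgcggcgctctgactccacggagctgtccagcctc
Slc6a3: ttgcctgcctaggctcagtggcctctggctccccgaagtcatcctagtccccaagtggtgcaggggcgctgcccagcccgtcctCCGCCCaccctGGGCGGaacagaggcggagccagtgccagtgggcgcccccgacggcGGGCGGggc

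Expression is given as log2 signal, the processed brightness of a gene's probe after quantile normalization over the 30 arrays, so a difference of 1 is a 2-fold change. Levels of different genes come from different probes and are not set against each other. A gene was called where limma's p-value, adjusted by the Benjamini-Hochberg method over all 36717 genes, was under 0.05. The 75th percentile of the raw signal ran from 454 to 823.7 on the hippocampal arrays and from 841 to 1636 on the brain arrays, before normalization. Tissue lay almost entirely on separate slides: 15 hippocampal arrays filled slide 1 and most of slide 2, brain arrays filled slides 3 and 4, and slide 2 held a single brain array, of JHT_3xTgAD mouse 0. The hippocampal array of mouse 0 had 624 spots marked as outliers by the scanner software, and the fewest on any array was 258. Genes linked to sex put 0 of 30 arrays on the wrong side, and Thy1, whose promoter drives the tau transgene, was at least 17.33 on arrays with the transgenes and at most 17.11 on those without.

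All 9 genes were higher in brain than in hippocampus, and for none of them did the brain and hippocampal arrays overlap. Each of the 9 was called, where 26% of all genes tested were called higher in brain. Brain arrays lay wholly above hippocampal arrays for 4.69% of all genes. The changes ran from 2.20-fold for Pdyn to 38.5-fold for Slc6a3. The samples are bulk tissue, in which more cells of a type and more RNA in each cell cannot be told apart.

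**Figure D1:**
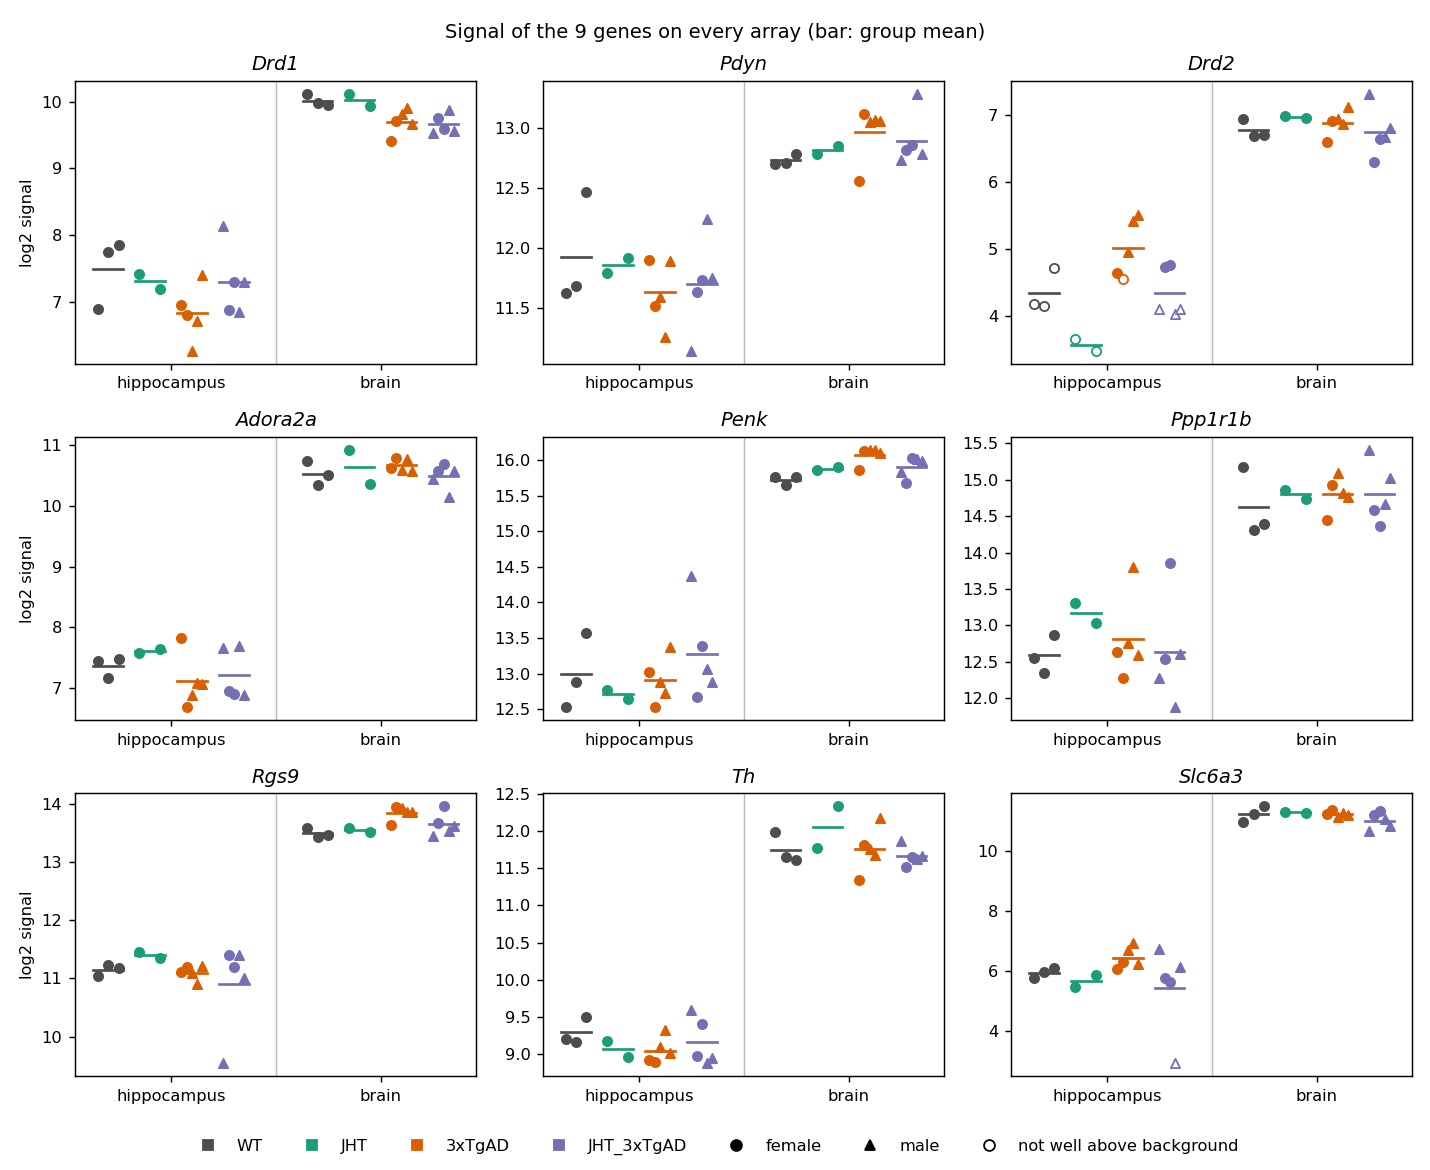
Log2 signal of the 9 genes on each of the 30 arrays, with the hippocampus and the brain side by side, genotypes marked by colour, females as circles, males as triangles and bars at the group means, where open points are arrays on which the probe was not well above background. The brain points lie above the hippocampal points for every gene, with the narrowest gap for Pdyn (0.09) and the widest for Slc6a3 (3.74).

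Among the genes of the D1 class, Drd1, the D1 receptor, lay between 6.26 and 8.13 on the hippocampal arrays (median 7.20) and between 9.40 and 10.12 on the brain arrays (median 9.81). The difference was 2.62 (6.13-fold, standard error 0.13, adjusted p = 7.6e-13). The highest hippocampal value belonged to mouse 0 and the next was 7.85. Pdyn, the precursor of dynorphin, was between 11.15 and 12.47 in the hippocampus (median 11.74) and between 12.56 and 13.29 in the brain (median 12.82). Its difference of 1.14 (standard error 0.11, adjusted p = 2.278e-08) was the smallest of the 9, and the lowest brain array, of 3xTgAD mouse 1, stood 0.09 above the highest hippocampal array, of WT mouse 12. A second Pdyn probe, well above background on 6 hippocampal and 12 brain arrays, differed by 1.01.

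Among the genes of the D2 class, Drd2, the D2 receptor, was well above background on 6 of 15 hippocampal arrays, between 3.49 and 5.51 (median 4.56), and on all 15 brain arrays, between 6.30 and 7.31 (median 6.86). The difference was 2.35 (standard error 0.08, adjusted p = 1.299e-15), with normexp background correction 1.05, so the size of the change of this dim gene is less certain than its direction. Adora2a, the adenosine receptor paired with D2 receptors in these neurons, was between 6.68 and 7.82 in the hippocampus (median 7.16) and between 10.15 and 10.92 in the brain (median 10.58). It differed by 3.32 (10.01-fold, standard error 0.10, adjusted p = 6.112e-16), and no hippocampal array came within 2.33 of a brain array. Penk, the precursor of enkephalin, was between 12.53 and 14.38 in the hippocampus (median 12.89) and between 15.66 and 16.14 in the brain (median 15.89), a difference of 2.90 (7.45-fold, standard error 0.13, adjusted p = 3.035e-13). The highest hippocampal Penk was again that of mouse 0, with the next at 13.58.

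The genes of signalling shared by both classes differed by similar amounts. Ppp1r1b, which encodes DARPP-32, was between 11.88 and 13.86 in the hippocampus (median 12.60) and between 14.32 and 15.41 in the brain (median 14.76), a difference of 2.01 (4.04-fold, standard error 0.15, adjusted p = 4.008e-10). Its spread within the hippocampus was wide, with 2 arrays (3xTgAD mouse 4 and JHT_3xTgAD mouse 7) above 13.80 and the rest at or below 13.31. The 4 highest hippocampal arrays (mice 4 and 7, and JHT mice 13 and 14) were also the 4 with the highest mean log2 signal of 8 choroid plexus genes, between 12.62 and 13.51 against at most 9.39 on the other hippocampal arrays. Without these 4 mice, an alternative chosen after seeing the data, Ppp1r1b differed by 2.31 (adjusted p = 9.976e-09). The part of the choroid plexus in the spread of Ppp1r1b was not tested. Rgs9, which speeds the shut-off of G proteins below the dopamine receptors, was between 9.54 and 11.46 in the hippocampus (median 11.19) and between 13.44 and 13.95 in the brain (median 13.61), a difference of 2.58 (5.98-fold, standard error 0.12, adjusted p = 4.008e-13). The hippocampal array of mouse 0 stood at 9.54 against 10.90 for the next, but a second probe of the same transcript read 11.30 there, within that probe's range of 10.71 to 11.45 over the hippocampus. That probe gave a tissue difference of 2.40 (adjusted p = 6.284e-18), and a probe for another transcript of Rgs9 0.58.

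Among the genes of the dopamine neuron, Slc6a3, the dopamine transporter, was between 2.93 and 6.93 in the hippocampus (median 6.08), well above background on 14 of 15 arrays, and between 10.67 and 11.50 in the brain (median 11.23). The difference was 5.27 (38.5-fold, standard error 0.25, adjusted p = 3.702e-13), with normexp background correction 4.18. The array at 2.93, of JHT_3xTgAD mouse 8, was the one not above background, and the next hippocampal array stood at 5.49. Th, tyrosine hydroxylase, was between 8.88 and 9.59 in the hippocampus (median 9.09) and between 11.35 and 12.33 in the brain (median 11.68), a difference of 2.62 (6.17-fold, standard error 0.09, adjusted p = 1.839e-15).

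Because the tissues lay on separate slides, the same differences were estimated with the slide as a block, which rests on the single brain array of slide 2. Pdyn was then no longer called (0.37, standard error 0.35, adjusted p = 0.5581). The differences of the other genes lay between 1.59 for Rgs9 (2.42 with its second probe) and 6.17 for Slc6a3. Within slide 2 alone, 1 brain array stood against 7 hippocampal arrays, and the differences were 0.81 for Pdyn and 5.20 for Slc6a3. Those of the other genes, apart from Drd2, ran from 2.21 for Drd1 and Rgs9 to 3.05 for Adora2a. Drd2 was not well above background on any of these 7 hippocampal arrays, so no size is given for it. No p-value is given for this fit, since its brain group is a single array.

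The difference was present in each genotype. All 9 genes were called higher in brain in WT (13.9% of all genes), 3xTgAD (19.1%), JHT_3xTgAD (16.5%) and JHT mice (9.44%). Slc6a3 differed by 5.28 in WT, 4.80 in 3xTgAD, 5.58 in JHT_3xTgAD and 5.62 in JHT mice, with standard errors of 0.43 to 0.68. In JHT_3xTgAD, mouse 8, with a hippocampal Slc6a3 not above background, differed by 8.13 and the others by 3.94 to 5.69. Pdyn was the weakest in each genotype, at 0.81 in WT (adjusted p = 0.0172), 1.34 in 3xTgAD (adjusted p = 1.117e-05), 1.20 in JHT_3xTgAD (adjusted p = 5.036e-05) and 0.96 in JHT (adjusted p = 0.03134). Drd2 was not well above background on any hippocampal array of WT or JHT mice, so its change there is a bound, at least 4.84-fold in WT and at least 7.77-fold in JHT. With the slide as a block, Pdyn was not called in any genotype and turned in direction in 3xTgAD mice (-0.069, adjusted p = 0.9611), and Ppp1r1b was not called in JHT mice (2.02, adjusted p = 0.1304). Pdyn in WT was also not called without mouse 10 or 11 (adjusted p = 0.1312 and 0.1172). In JHT, without mouse 13 or 14, which leaves 1 mouse that is assumed to vary as the other groups do, neither Ppp1r1b (0.09015 and 0.1598) nor Pdyn (0.2439 and 0.2507) was called. With the mean of its probes Pdyn was not called in WT (0.1269) or JHT mice (0.1935), and with the deposited scores not in JHT mice (0.05409).

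**Figure D2:**
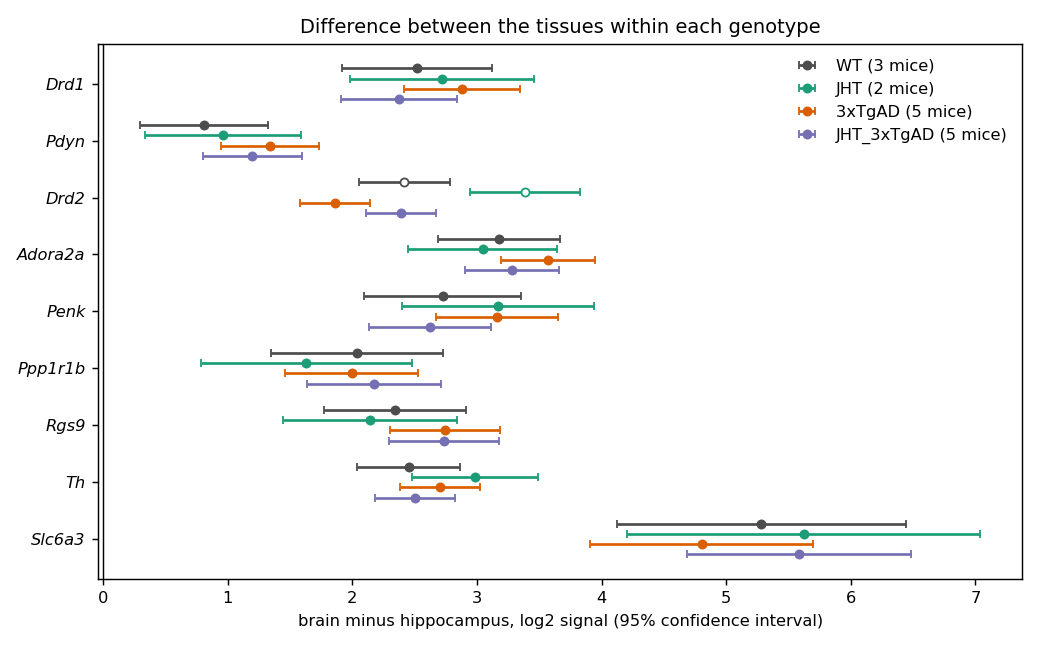
Brain minus hippocampus in log2 signal for the 9 genes within each genotype, with points for limma's estimates and bars for 95% confidence intervals, and open points mark Drd2 in WT and JHT mice, where the hippocampus was not above background on any array. All intervals lie above 0, with the smallest changes for Pdyn (0.81 to 1.34) and the largest for Slc6a3 (4.80 to 5.62).

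Where 26% of all genes were called higher in brain, 25.6% were called lower, and most but not all listed genes of the same cells were called higher. Of 28 further genes of striatal projection neurons, 22 were higher in brain, 3 lower and 3 not called, with a median change of 1.06 against 0.00 over all genes. Among them, the sodium channel subunit Scn4b was higher by 3.85. The transcription factors Foxp2 and Isl1 were called higher, with fitted changes of 4.43 and 3.36, but they were above background on 4 and 6 of 15 hippocampal arrays, so their sizes are less certain than their direction. The 3 that were lower were Bcl11b, Chrm4 and Foxp1, of which Bcl11b and Foxp1 are also transcription factors of cortical and hippocampal neurons. Of 16 genes of dopamine neurons, 13 were higher, 2 lower (Nr4a2 and Lmx1b) and 1 not called (Pitx3), with a median of 1.78. The transcription factor En2, which is also in the list of cerebellar genes, was higher by 4.80. The nicotinic receptor subunit Chrna6, above background on 11 of 15 hippocampal arrays, was higher by 3.97. Foxa2 was called higher but above background on 1 of 15 hippocampal arrays, so the size of its change is not given. Foxa1 was not above background on any hippocampal array and was at least 5.30-fold higher. En1, counted among the 13, was not well above background in either tissue, so it has no measured change.

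The remaining dopamine receptors and enzymes of dopamine breakdown were mixed. Drd5, a receptor of the D1 type that hippocampal neurons use, was lower in brain by 2.46, the reverse of Drd1, while Drd4, of the D2 type, was higher by 1.54, and Maoa, which breaks down monoamines, by 0.45. Drd3, also of the D2 type and also in the list of striatal projection neuron genes, was called higher. It was above background on 1 of 15 hippocampal and 14 of 15 brain arrays, so the size of its change is not given. In all, 5 of these 6 genes were higher and 1 lower (median 0.35). Of 6 other opioid genes, 3 were higher, 1 lower and 2 not called (median 0.19). The kappa receptor gene Oprk1, whose ligand is dynorphin, was higher by 2.49, the peptide precursors Pomc and Pnoc by 0.82 and 0.34, and the mu receptor gene Oprm1 was lower by 0.71. Of 10 genes of cAMP and G protein signalling in the striatum, 7 were higher, 2 lower and 1 not called (median 0.63), led by Arpp21, a phosphoprotein of cAMP signalling, at 2.30 and the phosphodiesterase Pde1b at 1.08. Adcy5, Gnal, Pde1b and Pde10a of this list are also in the list of striatal projection neuron genes.

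Genes of other regions and cells also differed between the tissues. Noradrenaline and serotonin neurons share vesicle and synthesis steps with dopamine neurons, and 7 of their 7 genes were called higher in brain. In the hippocampus 3 of the 7 were not above background on any array, and with these at their bound the median change was 2.87. Among the 7 were the noradrenaline transporter Slc6a2 (at least 4.94-fold) and the serotonin transporter Slc6a4, which was above background on 1 of 15 hippocampal arrays and all brain arrays, so the size of its change is not given. Of 5 cholinergic genes 4 were higher (median 4.21), led by the choline transporter Slc5a7 at 5.12. The hypothalamic genes were higher in 9 of 9 (median 3.93), the cerebellar in 9 of 10 (5.02), the cortical layer genes in 6 of 8 (0.91), the thalamic in 4 of 6 (0.995) and the choroid plexus genes in 5 of 8 (1.60), and 8 of 10 hippocampal field genes were lower (-2.67). Of 8 blood genes none was called. Within the genotypes, the choroid plexus genes were higher in brain in 6 of 8 in WT mice (median 4.08), called in 0 of 8 in 3xTgAD (1.24), higher in 3 of 8 in JHT_3xTgAD (1.98) and lower in 1 of 8 in JHT mice (-2.17). The part of these regions and cells in the changes of the 9 genes was not tested.

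**Figure D3:**
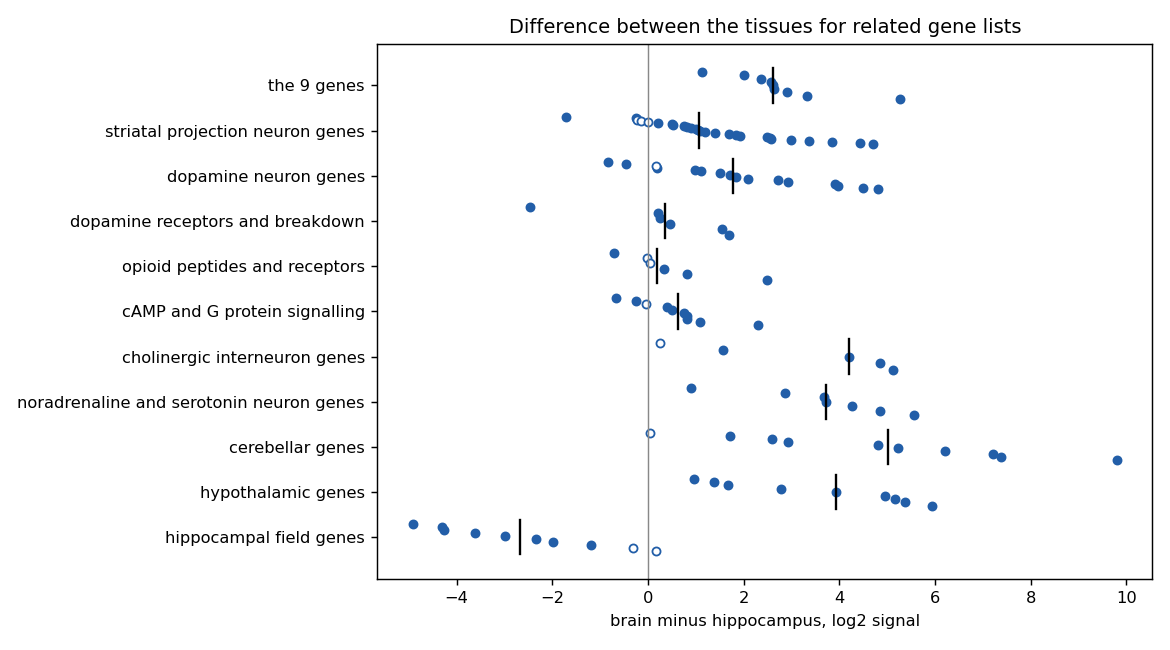
Brain minus hippocampus in log2 signal for the 9 genes and for genes of related cells and regions, one row per list, with vertical bars at the medians and open points for genes that were not called, and with genes dim in one tissue plotted at their fitted change. The 9 genes all lie above 1, the hippocampal field genes lie mostly below 0, and the cerebellar genes reach the largest changes.

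The labelled tissues can be read against these lists on single arrays. The brain of 3xTgAD mouse 1 was the lowest of the 5 3xTgAD brains for 7 of the 9 genes, the exceptions being Adora2a and Slc6a3. The mean log2 signal of the 9 hypothalamic genes was also lowest of all 15 brains there (9.07, median 10.78), and that of the 10 cerebellar genes was highest (12.63, median 12.46). Among hippocampal arrays, WT mouse 12 was the highest of the 3 WT mice for 8 of the 9 genes, and it had the highest level of the hypothalamic genes of all 15 hippocampi (8.82, median 7.09, next 7.94). The part of these other regions' genes in the order of the arrays was not tested. The share of all genes for which these arrays were the lowest or highest of their genotype is not given. The counts are therefore no result about the 9 genes.

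In the brain, none of the 9 genes was called between genotypes. The numbers called were 0 of 9 between JHT_3xTgAD and 3xTgAD females (2 against 2, 1.12% of all genes called), 0 of 9 between the males (3 against 3, 0.961%) and 0 of 9 over both sexes (5 against 5, 2.5%). They were likewise 0 of 9 between 3xTgAD and WT females (2 against 3, 1.15%), between JHT and WT females (2 against 3, 0.161%) and between JHT_3xTgAD and WT females (2 against 3, 0.994%). At an unadjusted limma p under 0.05 the counts in this order were 0, 2, 2, 3, 0 and 2, where 12.9%, 11.5%, 14.3%, 11%, 6.31% and 13.2% of all genes were under it. The 95% confidence intervals of the changes reached from -0.89 to 0.52 in the females of JHT_3xTgAD against 3xTgAD, from -0.65 to 0.69 in the males and from -0.76 to 0.68 between 3xTgAD and WT, and changes of the sizes within these intervals are not excluded by these data. Each array held the RNA of 1 mouse, so the spread behind these tests is that between mice.

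**Figure D4:**
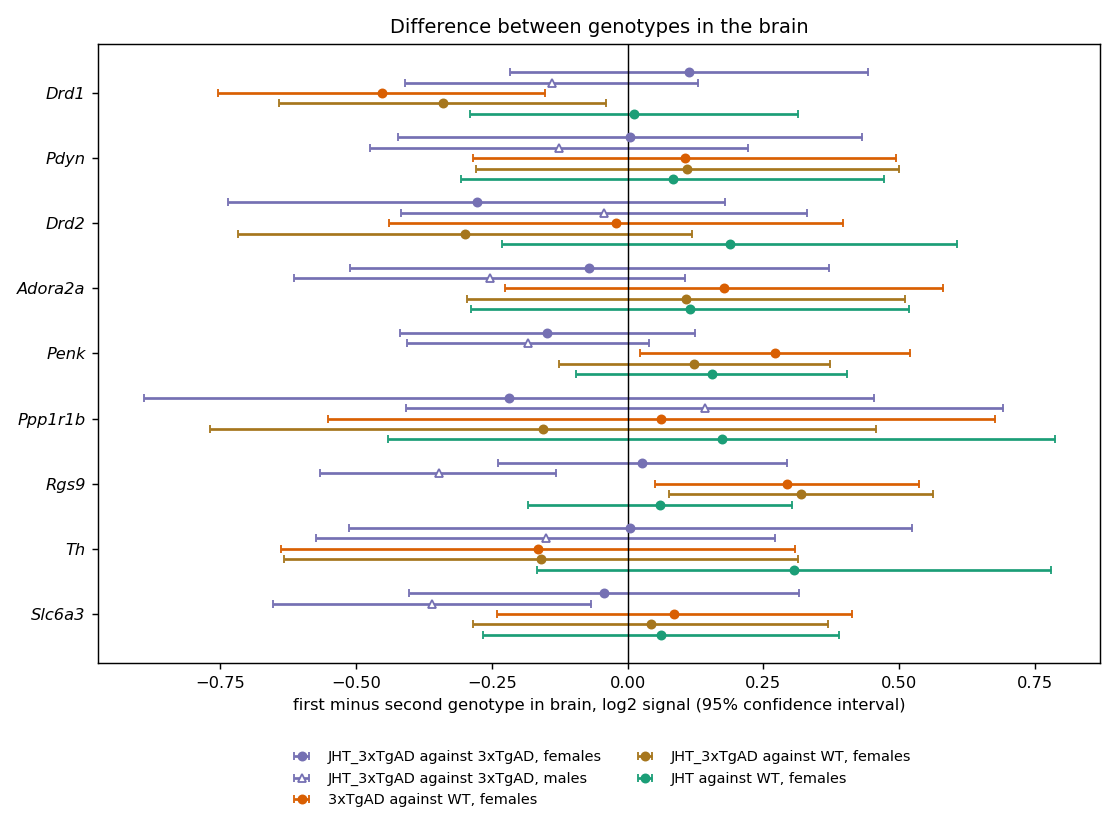
Genotype differences in brain in log2 signal for the 9 genes, with points for limma's estimates and bars for 95% confidence intervals, for the comparisons between JHT_3xTgAD, 3xTgAD, JHT and WT mice. No change passed the threshold, and the changes lay between -0.45 and 0.32.

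Several changes had unadjusted p-values under 0.05, in the males, over both sexes and between transgenic and WT females, and none passed adjustment. Slc6a3 was 10.67, 11.06 and 10.83 in the brains of JHT_3xTgAD males (mice 0, 8 and 9) and 11.15, 11.28 and 11.21 in those of 3xTgAD males (mice 3, 4 and 5). The groups did not overlap, and the difference was -0.36 (95% confidence interval -0.65 to -0.07, limma adjusted p = 0.3259). In females the same comparison had 11.22 and 11.33 against 11.26 and 11.38, which overlapped. Rgs9 was 13.45, 13.53 and 13.61 in JHT_3xTgAD males and 13.93, 13.85 and 13.85 in 3xTgAD males, again without overlap, a difference of -0.35 (95% confidence interval -0.57 to -0.13, limma adjusted p = 0.1754). JHT_3xTgAD females had 13.67 and 13.95 and 3xTgAD females 13.64 and 13.93. Of these male arrays 4 lay on slide 3, and within it Slc6a3 differed by -0.15 (adjusted p = 0.5809) and Rgs9 by -0.35 (adjusted p = 0.4384), 1 mouse against 3. The spread in such a fit comes from the other arrays of the slide, and the lone array is assumed to vary as they do. The difference between the sexes in the change was called for 0 of 9 genes by limma, where 0.101% of all genes were. At an unadjusted p under 0.05 there was 1 (8.75% of all genes), Rgs9 (0.38, limma adjusted p = 0.5509).

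Drd1 was 9.40 and 9.72 in 3xTgAD females (mice 1 and 2) and 10.11, 9.98 and 9.95 in WT females (mice 10, 11 and 12). All 3 WT brains were above both 3xTgAD brains, and the difference was -0.45 (95% confidence interval -0.76 to -0.15, limma adjusted p = 0.1979). JHT_3xTgAD females, at 9.75 and 9.59, were also below the WT brains (-0.34, limma adjusted p = 0.3224), and JHT females, at 10.12 and 9.93, overlapped them. Penk went the other way, with 15.86 and 16.13 in 3xTgAD females against 15.76, 15.66 and 15.76 in WT (0.27, limma adjusted p = 0.3993), as did Rgs9 with 13.64 and 13.93 against 13.58, 13.44 and 13.46 (0.29, limma adjusted p = 0.33). Rgs9 in JHT_3xTgAD females differed from WT by 0.32 (limma adjusted p = 0.2517), and by 0.40 with the slide as a block (adjusted p = 0.6031). WT and 3xTgAD brains lay on different slides, so slide and genotype can be separated only through the JHT_3xTgAD arrays that both slides held, and with the slide as a block Drd1 differed by -0.77 (standard error 0.22, adjusted p = 0.1285).

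Of 131 other listed genes of the same neurons and regions, 3 were called between genotypes in the brain. The calls were Chat between JHT_3xTgAD and 3xTgAD females (0.763% of the 131), Chat and Rgs7bp in the males and over both sexes (1.53% each), Chat between 3xTgAD and WT females and Plekhg1 between JHT_3xTgAD and WT females (0.763% each), shares near those of all genes given above for the same comparisons, and so no result about the lists. Chat, choline acetyltransferase, which makes acetylcholine and marks the striatum's cholinergic interneurons along with other cholinergic neurons, was 9.70 and 9.76 in 3xTgAD females and 9.45, 9.68 and 9.56 in 3xTgAD males. It was 9.11 and 9.20 in JHT_3xTgAD females and 8.90, 9.00 and 8.90 in JHT_3xTgAD males, so that each of the 5 JHT_3xTgAD brains lay below each of the 5 3xTgAD brains. WT brains were 9.21, 9.31 and 9.11, and JHT brains 9.00 and 8.81. Chat was lower in JHT_3xTgAD than in 3xTgAD mice over both sexes by 0.61 (standard error 0.07, limma adjusted p = 0.0007214), as were 1.07% of all genes, and it was higher in 3xTgAD than in WT females by 0.52 (standard error 0.09, limma adjusted p = 0.02909), as were 0.531% of all genes. Within slide 3 the first difference was -0.53 (adjusted p = 0.0217). It was -0.57 in females (limma adjusted p = 0.02894) and -0.63 in males (limma adjusted p = 0.005016), and the female call was lost without any 1 of its 4 mice. With the mouse number as a random block in a fit of all arrays, Chat was not called in females (limma adjusted p = 0.3063) or males (0.1485). Over both sexes the call was kept (0.02345). The difference between 3xTgAD and WT was not called with the slide as a block (0.42, adjusted p = 0.2995) or without 3xTgAD mouse 1 or 2 (adjusted p of 0.09502 and 0.1417) or WT mouse 10 or 12 (0.06844 and 0.0895). It was also not called with the mouse number as a random block (limma adjusted p = 0.3852). The other 4 cholinergic genes were not called, with Slc5a7 at -0.16 (limma adjusted p = 0.7092) and Slc18a3, the vesicular acetylcholine transporter, at -0.05 (limma adjusted p = 0.9259) over both sexes.

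Rgs7bp, which anchors RGS9 and related proteins at the membrane, was 13.44, 13.56 and 13.39 in JHT_3xTgAD males and 13.89, 13.82 and 13.82 in 3xTgAD males. The difference was -0.38 (standard error 0.08, limma adjusted p = 0.04847), and over both sexes -0.30 (adjusted p = 0.02587). Females had 13.65 and 13.88 against 13.97 and 13.89, which did not overlap but were not called (-0.17, limma adjusted p = 0.4841). The call in males was lost with the slide as a block (-0.29, adjusted p = 0.2473) and with the mean of the gene's probes (0.06565), and that over both sexes with the slide as a block (adjusted p = 0.09611) and within slide 3 (-0.18, adjusted p = 0.2091). Both were lost when only the groups compared were fitted (adjusted p of 0.2634 and 0.08734). Without mouse 0, 3, 4, 5 or 9 the male adjusted p was between 0.09296 and 0.1541, and without mouse 0, 1, 2, 3, 4 or 9 that of both sexes was between 0.0524 and 0.07574. Plekhg1, from the thalamic list, was higher in JHT_3xTgAD than in WT females, where it was not well above background on any of the 3 WT arrays (adjusted p = 0.03567).

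In the hippocampus, 0 of 9 genes were called between JHT_3xTgAD and 3xTgAD females (0.37% of all genes). The other hippocampal comparisons were added after the values were seen. Between 3xTgAD and WT females 0 of 9 were called (0.746%), as between JHT and WT females (0.0926%), and between JHT_3xTgAD and 3xTgAD males 1 of 9 was called (0.847%), Drd2. It was 4.11, 4.04 and 4.11 in JHT_3xTgAD males, not well above background on any of the 3 arrays, and 4.95, 5.42 and 5.51 in 3xTgAD males, above background on all 3. It was thus at least 2.13-fold lower in JHT_3xTgAD males (limma adjusted p = 0.01174). All 3xTgAD males lay on slide 1, as did JHT_3xTgAD mouse 0, while JHT_3xTgAD mice 8 and 9 lay on slide 2. On slide 2, Drd2 was not well above background on any hippocampal array. Slide and genotype are thus separated in this comparison only through the array of mouse 0. Drd2 in females was 4.73 and 4.76 against 4.64 and 4.56. In the same male hippocampi, the mean level of the 28 striatal projection neuron genes was 9.48, 9.19 and 9.44 in JHT_3xTgAD and 9.53, 10.06 and 9.75 in 3xTgAD mice, so that it was also higher in each 3xTgAD male, and its part in the Drd2 difference was not tested. The Drd2 call was lost without 3xTgAD mouse 4 (adjusted p = 0.05601), with normexp background correction (adjusted p = 0.07427) and when only the 6 arrays compared were fitted (adjusted p = 0.1874). Whether the change differed between hippocampus and brain was called for 0 of 9 genes in males (0.0409% of all genes, limma), with the smallest adjusted p among the 9 that of Drd2 (0.0847), for which no size is given because it was not above background in the JHT_3xTgAD male hippocampi, and for 0 of 9 in females (0.123%).

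Of the 131 other listed genes, 2 were called between JHT_3xTgAD and 3xTgAD males in the hippocampus (1.53%), Gch1 and Lef1, and 1 between 3xTgAD and WT females (0.763%), Gch1. Gch1, the rate-limiting enzyme for the cofactor that tyrosine hydroxylase needs, is in the dopamine neuron list. It was 8.22, 8.76 and 8.61 in JHT_3xTgAD males and 7.12, 7.50 and 7.73 in 3xTgAD males, higher by 1.08 (standard error 0.18, limma adjusted p = 0.02406). It was 7.34 and 7.34 in 3xTgAD females and 8.51, 8.43 and 8.31 in WT females, lower by 1.08 (standard error 0.20, limma adjusted p = 0.03983). In the hippocampus slides 1 and 2 shared no group but JHT_3xTgAD males, with mouse 0 alone on slide 1, so the slide-block values that follow rest on its array. All 7 arrays of slide 2 from the hippocampus were at or above 8.12, and all of slide 1 except mouse 0 were at or below 7.73. With the slide as a block the male difference was 0.77 (adjusted p = 0.03949), within slide 1 it was 0.77 (1 mouse against 3, adjusted p = 0.107), and the difference from WT was -0.62 (adjusted p = 0.2684). The male call was lost when only the groups compared were fitted (0.2621) and with the mean of the gene's probes (0.09391). It was also lost without mouse 3, 4 or 8 (adjusted p from 0.06243 to 0.07377) and the call against WT without any 1 of its 5 mice (0.09232 to 0.1824).

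Over the 15 brains, the 9 genes varied together in some pairs. Of 36 pairs, 4 passed a threshold of 0.05 on the Pearson correlation after Benjamini-Hochberg adjustment over the 36 (permutation test, 100000 resamples, two-sided), 3 positive and 1 negative. The median r over all 36 was 0.13. Deviations from the group means, used below as an alternative, are not independent within a group, so their permutation p-values may be too small. Penk and Rgs9 correlated at r = 0.77 (permutation p = 0.00128, adjusted p = 0.02538, Spearman's rho 0.721 with permutation p = 0.0033), at 0.901 for deviations from the group means (adjusted p = 0.00144), 0.613 within slide 3 and 0.766 within slide 4. Penk and Pdyn, both opioid precursors, correlated at r = 0.717 (permutation p = 0.0028, adjusted p = 0.02538, rho 0.75 with permutation p = 0.00202), and at 0.594 for deviations (adjusted p = 0.1059). Drd2 and Ppp1r1b correlated at r = 0.719 (permutation p = 0.00256, adjusted p = 0.02538, rho 0.696 with permutation p = 0.00551), and at 0.628 for deviations (adjusted p = 0.09166), so that neither of these pairs passed for deviations. Without the 2 arrays farthest from the median of the first gene these 3 were 0.695, 0.659 and 0.678, none past the threshold after adjustment. Ppp1r1b and Slc6a3 correlated negatively at r = -0.708 (permutation p = 0.00282, adjusted p = 0.02538) and at -0.733 for deviations (adjusted p = 0.02304), but at -0.152 within slide 3 and -0.737 within slide 4, and at -0.597 without the 2 arrays. Their rank correlation (rho -0.539, permutation p = 0.04072) did not pass after adjustment (adjusted p = 0.2094). Drd2 and Th had the highest rank correlation of the 36 pairs (rho 0.886, permutation p = 6e-05, adjusted p = 0.00216), with Pearson's r at 0.669 (permutation p = 0.0071, adjusted p = 0.05112). It was 0.633 (adjusted p = 0.09166) for deviations, which did not pass, and 0.795 (adjusted p = 0.0198) without the 2 arrays. Within slide 3 (8 arrays, exact test) 2 pairs passed, Drd2 with Penk (0.897) and Adora2a with Slc6a3 (0.885), and within slide 4 (6 arrays, exact test) none.

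**Figure D5:**
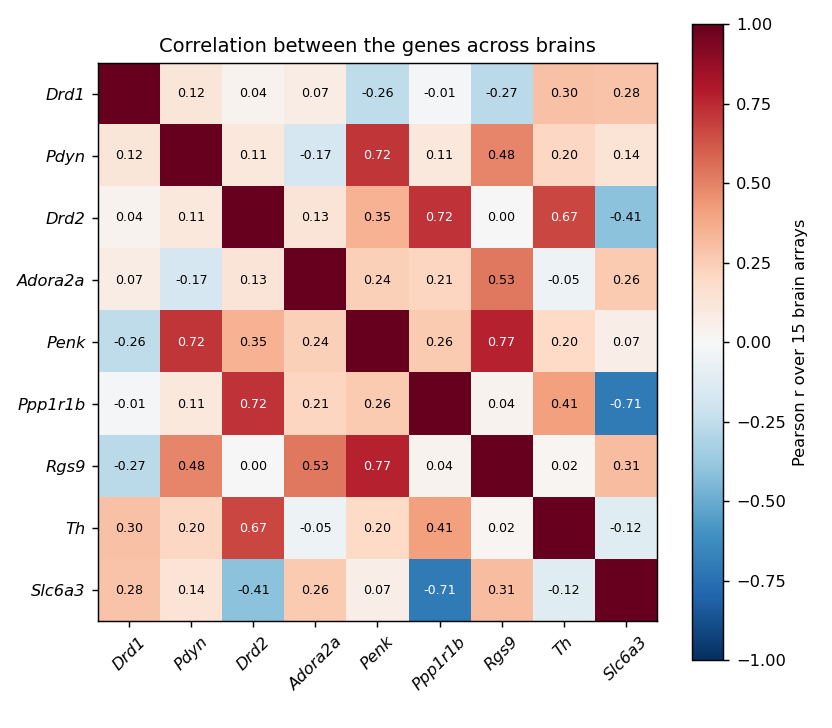
Pearson correlation of each pair of the 9 genes over the 15 brain arrays, as a coloured grid with the value of r in each cell. The highest is Penk with Rgs9 (0.77) and the lowest Ppp1r1b with Slc6a3 (-0.708).

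The genes most like the D2 receptor and the dopamine transporter over the 15 brains were sought among 14735 named genes above background on all of them. The 5 with the highest Pearson correlation with Drd2 were Chst15 (0.87), Plcg1 (0.852), Lrrc10b (0.843), Cd164l2 (0.835) and Crabp2 (0.835). Those with Slc6a3 were Krt10 (0.938), Chml (0.92), Pigs (0.919), Focad (0.918) and R3hdm1 (0.914). With deviations from the group means, the 10 correlations ran from 0.735 for Plcg1 to 0.914 for Pigs. The points share arrays and slides, and these are the highest of many correlations, so they are given as a description without a test.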

How the data were processed

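RNA from the hippocampus and the brain of 15 mice was hybridized to 1-colour Agilent arrays, 1 per sample. Per the file headers, the authors deposited the processed intensity of each spot, after background subtraction in Feature Extraction 12.0.3.1 and with no normalization between arrays, on a design annotated to mm9. They also deposited scores, which the scanner values showed to be the Z score of the log10 intensity within each array (lowest correlation 1, largest median difference 0.00254). These scores served as an alternative.

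Of 62976 spots per array, 3671 control spots and spots marked as outliers were left out, and no spot was saturated. This left 55681 probes. The study's methods name quantile normalization, log2 transformation of raw probe intensities and the probe with the highest average. Here the background-subtracted processed signal was log2-transformed first and then quantile-normalized over all 30 arrays, and each gene took its brightest probe by mean. Symbols were found through accessions for 28331 probes, giving 36717 genes and transcripts, 21367 of them named. The number of arrays limits the precision.

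Tests used limma 3.58.1 with statmod 1.5.0 in R 4.3.3. Tissues were compared over 12 groups of tissue, genotype and sex on 30 arrays, and genotypes over 6 groups on the 15 arrays of a tissue. A gene not well above background on any array of a group was given as a bound, the mean of the other group against the lowest signal well above background or the gene's own, whichever was higher on each array. P-values were adjusted by Benjamini-Hochberg over all genes at 0.05. The scripts were tested on simulated data. The genes followed and the lists were chosen with earlier results of these data known. Beside the 9 genes, up to 4 called genes of each list with the largest change were named, apart from 1 that is not reported here, and 5 genes most like Drd2 and Slc6a3. The lists held genes of striatal projection, dopamine, noradrenaline and serotonin, and cholinergic neurons, dopamine receptors, opioids, striatal signalling, and genes of the hippocampus, cerebellum, cortex, thalamus, hypothalamus, choroid plexus and blood, where Hbb-bs was not matched.

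The labels number the hippocampal and the brain arrays alike, with the same genotype and sex at each number. The number was taken as the mouse, which the labels do not state. Deviations from the group means were correlated for the 2 arrays of a number, with r between -0.178 and 0.24, a median of 0.105 and 8 of 15 pairs over 0.1. Alternatives were 75th percentile scaling, normalization within the tissue, deposited scores, the mean of probes, a filter on dim probes, normexp background correction (offset 50), slide or mouse as a block, values within a slide, only the groups compared and leaving out each mouse. Hippocampal comparisons other than that of JHT_3xTgAD and 3xTgAD females, and the tissue difference in males, were added after the values were seen.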

Additional observations from a re-analysis of the deposited data

Results flagged for a closer look

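In 36 sets of 5 arrays of a gene, tissue and genotype, 6 had an array whose gap to its nearest neighbour, as a share of the range of the 5, was over Dixon's critical value of 0.71, which chance gives in about 1 of 20 sets. The brain of 3xTgAD mouse 1 was the lowest in 3 of them, in Pdyn (share 0.884, 12.56 against 13.05 for the next), Penk (0.854, 15.86 against 16.10) and Rgs9 (0.725, 13.64 against 13.85). The brain of JHT_3xTgAD mouse 8 was the highest in Pdyn (0.762, 13.29 against 12.87). In the hippocampus of JHT_3xTgAD mice, mouse 0 was the lowest in Rgs9 (0.787, 9.54 against 11.003), where the second probe read 11.30, and mouse 8 was the lowest in Slc6a3 (0.714, 2.93 against 5.64), where the probe was not well above background.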

How the results depend on the processing

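With the mouse number as a fixed replicate block (8 of 15 pairs of arrays correlated over 0.1, and the labels do not state that a number is 1 animal), no call of the 9 genes between the tissues changed (for Pdyn over all mice, adjusted p = 1.849e-06). As a random block in a fit of all arrays, it kept the calls of Chat over both sexes (adjusted p = 0.02345), of Rgs7bp in males and both sexes (0.03719 and 0.01896) and of Gch1 in male hippocampi (0.001049) and between 3xTgAD and WT hippocampi (0.003087), while Chat in females, in males and between 3xTgAD and WT was not called (0.3063, 0.1485 and 0.3852). With 75th percentile scaling, where the median change of all genes was -0.28, none of the 9 genes lost its call between the tissues over all mice. Of the counts of called genes among the 9, 221 were within 1.5 times the main count and 7 were not, all in comparisons added after the values were seen. Between JHT_3xTgAD and 3xTgAD males in the hippocampus, where 1 of 9 was called, the count was 2 with the slide as a block, 2 within slide 1, 0 with normexp background correction and 0 with only the groups compared, and it ran from 0 to 1 when each mouse was left out, with 0 without mouse 4. Between 3xTgAD and WT females in the hippocampus it was 2 in place of 0 with the slide as a block (Th -1.07, adjusted p = 0.03526, and Rgs9 1.66, adjusted p = 0.001419). For the tissue difference of the male change it was 2 in place of 0 with the slide as a block (Penk -1.50, adjusted p = 0.04689, and Rgs9 1.17, adjusted p = 0.00204). In the hippocampus slides 1 and 2 shared no group but JHT_3xTgAD males, with mouse 0 alone on slide 1, so the slide-block values of these 3 comparisons, those of Th and Penk included, rest on its array (624 outlier spots). The Rgs9 calls rest also on the probe used, as the second probe gave 0.33 (adjusted p = 0.3642), -0.21 (0.7447) and -0.65 (0.1262) for the slide block in these 3 comparisons. The count of correlated pairs, 4 of 36, was 3 for deviations from group means (Penk with Rgs9 and Ppp1r1b with Slc6a3, which are 2 of the 4, and Drd1 with Pdyn at 0.723, adjusted p = 0.02052), 2 within slide 3, 0 within slide 4 and 1 without the 2 arrays. The p-values for deviations may be too small, as deviations within a group are not independent. For single genes, 1 call turned in direction, Pdyn between the tissues in 3xTgAD mice with the slide as a block (-0.069, adjusted p = 0.9611), the cause was not tested, and 21 calls were lost. Dim probes limit Drd2 most, as it was above background on 6 of 15 hippocampal arrays.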
